A study of Mus musculus with 5 samples.

Results

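This section describes 38 genes of the cell cycle and DNA replication in the livers of newborn mice that were wild-type or heterozygous for Mdr2. The genes were chosen by name and found by symbol in the deposited count tables, where each of the 38 had a single row among 36401 genes. By their known roles, 18 act in the G1 to S transition and DNA replication (G1/S), 18 act in mitosis and its preparation, and 2 are inhibitors of cyclin-dependent kinases (CDKs). Liver RNA from lobe 1 was sequenced on day 10 of life in BALB/C mice, with 2 libraries from Mdr2+/+ (wild-type) and 3 from Mdr2+/- (heterozygous) animals. The animals descended from an Mdr2-/- line crossed back onto BALB/c, the genotypes were housed together as littermates, and the labels name no other treatment. They do not say how many animals went into a library, so all p-values measure the spread between these libraries, which may be technical. Mdr2 is the older name of Abcb4, the hepatocyte transporter that moves phosphatidylcholine into bile, and the series title ties low ABCB4 to the inflammation of biliary atresia. The libraries are of whole tissue, so fewer cells of a type and less RNA per cell cannot be told apart.

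Cells enter the cycle when D-type cyclins and their kinases release E2F transcription factors, which switch on the genes of DNA synthesis. The helicase made of the Mcm2 to Mcm7 proteins is loaded on DNA in G1 by Cdc6 and Cdt1 and fires in S phase, when Pcna holds the polymerases on their template and ribonucleotide reductase and thymidylate synthase supply nucleotides. Cyclin A and B with Cdk1 then drive mitosis under Foxm1, the Polo and Aurora kinases and the spindle checkpoint, and the anaphase-promoting complex ends it. In the newborn mouse liver both hepatocytes and blood precursors divide, and the organ is still a site of red cell formation after birth.

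Normalised CPM, the unit of all levels below, is the count scaled for library size and between libraries, and values come in the order wild-type replicate 1, wild-type replicate 2, then heterozygous replicates 1, 2 and 3. Fold changes are on the log2 scale, heterozygous minus wild-type, with their standard error (SE). A gene was called when its p-value in edgeR's quasi-likelihood test, adjusted over all 13959 tested genes, was under 0.05. Where a wild-type library is left out below, a single one remains. Calls and p-values of such a fit take no account of spread between wild-type libraries. Library totals ran from 11944157 to 17312851 estimated counts, and all 38 genes passed the filter on low counts, with 93.2 to 2514 counts in a library. Abcb4 had 162.1 CPM in each wild-type library and 100.6, 97.7 and 92.6 CPM in the heterozygous ones (log2 fold change -0.74, SE 0.06, adjusted p = 3.4e-04), which matches the genotype labels. Albumin, the defining hepatocyte transcript, ran from 119084 to 146449 CPM, which fits liver tissue.

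The cell cycle genes leaned downward in heterozygous livers by a small amount. Of the 38 genes, 12 fell and 0 rose, where 5.41% of all tested genes were called lower and 6.63% higher. No gene of the 38 was higher at an unadjusted p under 0.05 either, while 20 were lower, and DESeq2, robust limma and voom also called 0 higher, with 11, 11 and 12 lower. The genes that fell were the cyclins Ccnd1, Ccne1 and Ccna2, the replication genes Cdc6, Mcm2, Gins2 and Pcna, the nucleotide genes Tyms and Rrm2, and the mitotic genes Cdk1, Ube2c and Mki67. Their decreases ran from 19.7% to 36.8%, and 36 of the 38 genes had a fold change below 0, as did 50.4% of tested genes. The median log2 fold change was -0.24 for the 38 genes and -0.00 for all tested genes. Non-overlapping levels with heterozygotes lowest were found for 24 of the 38 genes and 22.7% of tested genes, and with heterozygotes highest for 0 of the 38 and 22.9% of tested genes. Leaving out any library made calls fewer over all tested genes (755 lower and 925 higher with all libraries), and in most cases among the 38 genes. The counts rest in part on wild-type replicate 1: without it 3 genes were called lower (Ccnd1, Pcna and Rrm2), with 12 at an unadjusted p under 0.05, and without heterozygous replicate 2 there were 6.

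**Figure D1:**
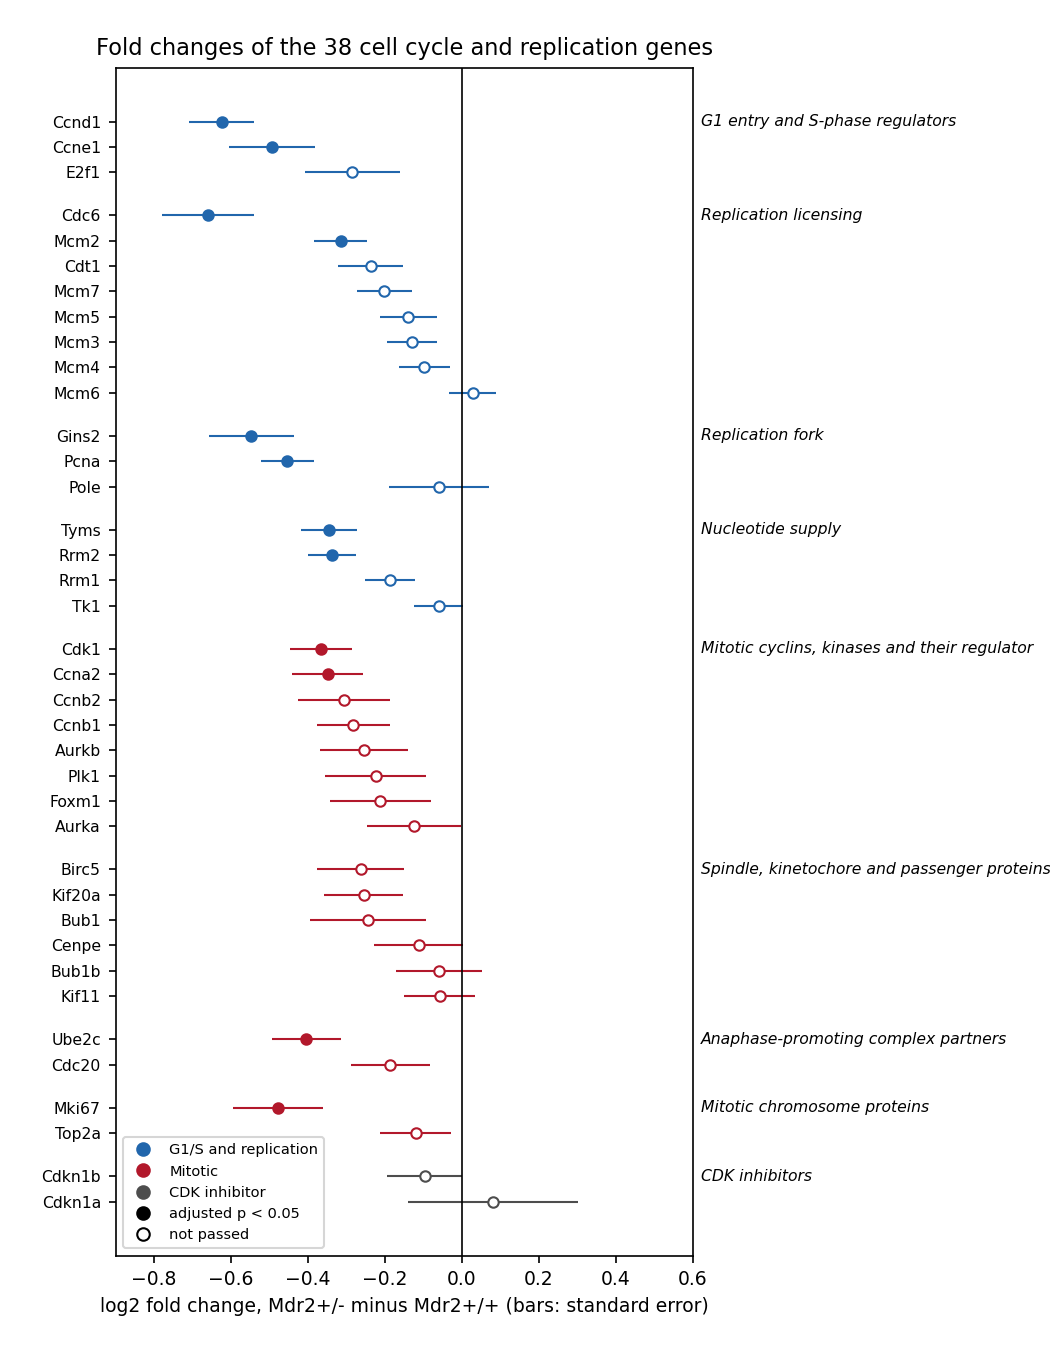
Log2 fold change of each of the 38 genes, heterozygous minus wild-type, with the SE as a bar, grouped by role; filled points passed an adjusted p of 0.05 in edgeR. The 12 filled points lie between -0.66 and -0.32, and the points to the right of 0 are Mcm6 and Cdkn1a.

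The G1/S and mitotic genes differ in the short sequences around their starts. RefSeq promoter windows (GRCm38.p6, the mm10 assembly) of 250 bases before to 50 bases after the start were found for 30 of the 38 genes, 14 G1/S and 14 mitotic genes among them. The letters TTTGAA, the core of the cell cycle homology region of mitotic genes, stood on either strand in 10 of the 14 mitotic windows, in 1 of the 14 G1/S windows and in 17.9% of all 32851 windows. An E2F word (TTTCCCGC, TTTCGCGC, TTTGCCGC or TTTGGCGC, either strand) stood in 6 of the G1/S windows, in 1 mitotic window and in 2.26% of all windows. Not all of these lie before the start: TTTGAA in Aurka, Bub1b and Plk1 and the E2F words in Cdt1 and Mcm3 come after it. CCAAT, the box bound by NF-Y, stood in 13 mitotic and 8 G1/S windows and in 37.4% of all. An E2F word can overlap the reverse of another E2F word, and a match describes letters only. The stretches below show both patterns in genes that fell and genes that did not. Capitals mark the 3 kinds of word, and each stretch lies upstream of both the RefSeq and the GENCODE start, 5′ to 3′ on the strand of the gene.
Mcm6, not called, chr1:128359725-128359824, minus strand: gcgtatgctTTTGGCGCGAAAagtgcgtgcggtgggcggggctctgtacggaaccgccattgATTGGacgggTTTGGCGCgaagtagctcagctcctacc
Mcm2, called lower, chr6:88898825-88898924, minus strand: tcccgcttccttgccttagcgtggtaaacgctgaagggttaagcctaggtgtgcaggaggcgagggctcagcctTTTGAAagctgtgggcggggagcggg
Cdk1, called lower, chr10:69352958-69353057, minus strand: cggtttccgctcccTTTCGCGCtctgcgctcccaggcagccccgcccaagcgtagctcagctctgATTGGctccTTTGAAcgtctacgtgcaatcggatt
Mki67, called lower, chr7:135716452-135716551, minus strand: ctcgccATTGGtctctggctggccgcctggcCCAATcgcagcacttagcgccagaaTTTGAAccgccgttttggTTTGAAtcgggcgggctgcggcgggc
Top2a, not called, chr11:99024190-99024289, minus strand: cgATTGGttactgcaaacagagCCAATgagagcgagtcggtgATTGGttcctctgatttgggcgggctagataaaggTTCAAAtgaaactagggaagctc
ATTGG and TTCAAA are CCAAT and TTTGAA read on the other strand, and in Mcm6 the first E2F word overlaps the reverse of another. Mcm6 holds the E2F words shown and was level between the genotypes, and Mcm2 is the G1/S gene with TTTGAA. Cdk1 is the mitotic gene with an E2F word. Set against the fold changes, among G1/S genes with a window, 1 of the 6 with an E2F word fell (median log2 fold change -0.17) and 5 of the 8 without it (median -0.33). Among mitotic genes 3 of the 10 with TTTGAA fell (median -0.21) and 0 of the 4 without it (median -0.25), namely Birc5, Bub1, Ccnb1 and Cenpe. These splits were not tested.

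Among the regulators that open the cycle, Ccnd1, which encodes the cyclin D1 that pairs with Cdk4 and Cdk6 in response to growth signals, fell in every fit. Ccnd1 (ENSMUSG00000070348, chromosome 7, 144929931 to 144939925, minus strand, mm10) had 147.1 and 169.8 CPM in wild-type and 94.5, 110.2 and 103.4 CPM in heterozygous livers. The genotypes did not overlap, and every heterozygous library lay well under both wild-type ones. It fell by 35.2% (log2 fold change -0.62, SE 0.08, adjusted p = 0.00264) and kept its call in all 16 alternative fits. It shares up to 818 exon bases with Oraov1 on the opposite strand (Oraov1 log2 fold change -0.27, not called), so part of its reads is uncertain, and 11 of the 38 genes overlap exons of some other counted gene. Ccne1, whose product cyclin E1 activates Cdk2 at the start of S phase, had 19.02 and 21.2 CPM against 13.5, 16.0 and 13.1 CPM, again without overlap, and fell by 29.3% (log2 fold change -0.49, SE 0.11, adjusted p = 0.0219). Leaving out wild-type replicate 1, wild-type replicate 2, heterozygous replicate 1 or heterozygous replicate 3 ended its call (adjusted p = 0.0519 to 0.110). E2f1, the E2F factor that activates replication genes, had 12.5 and 10.3 CPM against 9.03, 9.04 and 10.1 CPM and did not pass (log2 fold change -0.29, SE 0.12, adjusted p = 0.165).

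The licensing genes, which load the replicative helicase, gave the largest change in a loader, Cdc6. Cdc6 (ENSMUSG00000017499, chromosome 11, 98907801 to 98923940, plus strand), the ATPase that helps to load the helicase, had 13.3 and 11.7 CPM in wild-type and 7.30, 8.01 and 8.43 CPM in heterozygous livers. Its 3 heterozygous values were close together and all under the lower wild-type value. Cdc6 had the largest fall of the 38 genes, by 36.8% (log2 fold change -0.66, SE 0.12, adjusted p = 0.00864). Its log2 fold change was -0.56 and its call was lost (adjusted p = 0.0715) when wild-type replicate 1 was left out. Its partner Cdt1 had 27.3 and 24.2 CPM against 22.5, 21.9 and 21.4 CPM, did not overlap and did not pass (log2 fold change -0.24, adjusted p = 0.101).

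The 6 subunits of the Mcm2-7 ring stand side by side in the complex, and their log2 fold changes ran from -0.32 to 0.03. Mcm2 had 44.8 and 43.9 CPM against 34.5, 35.2 and 37.2 CPM and fell by 19.7% (log2 fold change -0.32, SE 0.07, adjusted p = 0.0175). The call was lost when either wild-type replicate or heterozygous replicate 2 was left out (adjusted p = 0.0585 to 0.0851). Mcm7 came next, with 59.4 and 64.6 CPM against 56.8, 53.5 and 51.4 CPM (log2 fold change -0.20, adjusted p = 0.0969), and was called when libraries were scaled by their totals alone (adjusted p = 0.0472). Mcm5, Mcm3 and Mcm4 had log2 fold changes of -0.14, -0.13 and -0.10 and did not pass, although their genotypes did not overlap. Mcm6 was the subunit without a decrease, with 60.1 and 62.5 CPM in wild-type and 62.9, 63.3 and 61.2 CPM in heterozygous livers (log2 fold change 0.03, SE 0.06). Its sign turned with totals-only scaling, with the length offset and without wild-type replicate 1 (log2 fold change -0.01 to -0.00). Whether Mcm2 and Mcm6 differ from each other in their change was not tested.

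At the replication fork, 2 of 3 genes fell. Pcna (ENSMUSG00000027342, chromosome 2, 132249162 to 132253314, minus strand), the sliding clamp of the DNA polymerases, had 88.2 and 81.1 CPM in wild-type and 64.0, 58.3 and 63.3 CPM in heterozygous livers. The gap between the genotypes was wider than the spread inside either of them. Pcna fell by 26.9% (log2 fold change -0.45, SE 0.07, adjusted p = 0.00422) and was called in all 16 alternative fits. Gins2, a subunit of the GINS complex that joins the helicase to the fork, had 20.7 and 19.2 CPM against 11.9, 14.1 and 14.8 CPM and fell by 31.8% (log2 fold change -0.55, SE 0.11, adjusted p = 0.0145). The Gins2 call was lost when wild-type replicate 1 was left out (adjusted p = 0.0892), and its exons overlap those of Gse1 on the opposite strand by up to 2758 bases (Gse1 log2 fold change 0.61, not called), so part of its reads is uncertain. Pole, the catalytic subunit of polymerase epsilon, had 14.9 and 14.2 CPM against 13.9, 16.1 and 12.04 CPM, with overlapping genotypes (log2 fold change -0.06, SE 0.13).

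Of the 4 genes of nucleotide supply, Rrm2 and Tyms fell. Rrm2, the small subunit of ribonucleotide reductase that is made in S phase, had 54.2 and 54.3 CPM in wild-type and 43.4, 42.0 and 43.4 CPM in heterozygous livers. The values were close together in each genotype and did not overlap. It fell by 20.9% (log2 fold change -0.34, SE 0.06, adjusted p = 0.00925) and kept its call with each library left out. Tyms, the thymidylate synthase, had 44.1 and 41.4 CPM against 35.6, 32.7 and 33.0 CPM and fell by 21.1% (log2 fold change -0.34, SE 0.07, adjusted p = 0.0159). The Tyms call was lost when wild-type replicate 1, heterozygous replicate 2 or heterozygous replicate 3 was left out (adjusted p = 0.0578 to 0.0972). Rrm1, the large reductase subunit, had 75.5 and 69.1 CPM against 64.5, 64.2 and 62.0 CPM and did not pass (log2 fold change -0.19, adjusted p = 0.0929), but was called with an offset for transcript length (-0.26, adjusted p = 0.0348). Tk1, the cytosolic thymidine kinase, had 62.9 and 64.4 CPM against 61.5, 63.1 and 58.3 CPM with overlap (log2 fold change -0.06, SE 0.06). Tk1 shares up to 83 exon bases with Afmid on the opposite strand, and Afmid rose (log2 fold change 0.34, adjusted p = 0.0191), so part of the Tk1 reads is uncertain.

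Among the kinases and cyclins of mitosis, Cdk1 and Ccna2 fell. Cdk1 (ENSMUSG00000019942, chromosome 10, 69335146 to 69352938, minus strand), the kinase that drives entry into mitosis, had 30.1 and 27.8 CPM in wild-type and 22.1, 22.0 and 23.4 CPM in heterozygous livers. The heterozygous values were all under the lower wild-type value. Cdk1 fell by 22.4% (log2 fold change -0.37, SE 0.08, adjusted p = 0.0186), but DESeq2 did not call it (adjusted p = 0.0515), nor did edgeR when wild-type replicate 1 or heterozygous replicate 2 was left out (adjusted p = 0.123 and 0.0714). Ccna2, the cyclin A2 of S phase and early mitosis, had 58.3 and 47.6 CPM against 39.4, 41.6 and 44.0 CPM and fell by 21.3% (log2 fold change -0.35, SE 0.09, adjusted p = 0.0389). Ccna2 lost its call without wild-type replicate 1, where its log2 fold change was -0.19 (adjusted p = 0.247), and without any heterozygous replicate (adjusted p = 0.0608 to 0.0987). It shares up to 428 exon bases with Exosc9 on the opposite strand (log2 fold change -0.22, not called).

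The other genes of this group were lower without passing. Ccnb1, the main mitotic cyclin, had 21.5 and 18.8 CPM against 16.0, 16.4 and 17.3 CPM (log2 fold change -0.28, adjusted p = 0.0875). Ccnb2, a second B-type cyclin, had 28.9 and 21.6 CPM against 20.6, 21.6 and 19.5 CPM (log2 fold change -0.31, adjusted p = 0.130). Wild-type replicate 2 sat at the heterozygous level for Ccnb2. With a library left out, the log2 fold change of Ccnb2 ran from -0.49 to -0.08. Aurkb, the Aurora kinase of the passenger complex, Plk1, the Polo kinase of mitosis, and Foxm1, the factor that activates mitotic genes, had log2 fold changes of -0.25, -0.22 and -0.21 with adjusted p-values of 0.183, 0.298 and 0.331. Without wild-type replicate 1 these were -0.10 for Aurkb, -0.00 for Plk1 and -0.05 for Foxm1. Aurka, the Aurora kinase of spindle poles, had 17.1 and 18.9 CPM against 15.1, 18.998 and 15.2 CPM, with overlap (log2 fold change -0.13, adjusted p = 0.548).

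The 6 spindle, kinetochore and passenger genes held no called gene in edgeR, with 2 at an unadjusted p under 0.05, and none in DESeq2, robust limma or voom. Birc5, which encodes survivin of the passenger complex, had 29.5 and 22.6 CPM against 23.1, 21.8 and 20.8 CPM (log2 fold change -0.26, adjusted p = 0.165). With a library left out, the log2 fold change of Birc5 ran from -0.43 to -0.05. Kif20a, the kinesin of cytokinesis, had 28.9 and 23.1 CPM against 20.9, 22.5 and 22.2 CPM (log2 fold change -0.26, adjusted p = 0.140), and it shares up to 977 exon bases with Cdc23 on the opposite strand. The checkpoint kinase Bub1 had a log2 fold change of -0.24 and its relative Bub1b one of -0.06. The motor proteins Cenpe, which moves chromosomes to the spindle equator, and Kif11, which pushes the poles apart, had -0.11 and -0.06. Wild-type and heterozygous values overlapped for 5 of these 6 genes, the exception being Kif20a.

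Mki67, the proliferation antigen that coats mitotic chromosomes, gave the largest difference in the mitotic class. Mki67 (ENSMUSG00000031004, chromosome 7, 135689784 to 135716361, minus strand) had 166.0 and 123.5 CPM in wild-type and 100.9, 97.2 and 114.3 CPM in heterozygous livers. Wild-type replicate 1 stood far above the other 4 libraries, while wild-type replicate 2 was nearer to heterozygous replicate 3 than to its own partner. Mki67 fell by 28.1% (log2 fold change -0.48, SE 0.12, adjusted p = 0.0291). Without wild-type replicate 1 the log2 fold change was -0.25 and the call was lost (adjusted p = 0.189), as it was without heterozygous replicate 1 or 2 (0.0711 and 0.0923) and in robust limma (0.0635). Ube2c, the ubiquitin-conjugating enzyme of the anaphase-promoting complex, had 32.8 and 27.8 CPM against 22.8, 22.5 and 23.7 CPM and fell by 24.2% (log2 fold change -0.40, SE 0.09, adjusted p = 0.0191). The Ube2c call was lost when wild-type replicate 1 was left out (adjusted p = 0.146), and also when heterozygous replicate 2 was (0.0694).

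Cdc20, the activator of that complex, and Top2a, the topoisomerase that untangles sister chromosomes, did not pass. Cdc20 had 20.01 and 18.5 CPM against 15.4, 16.8 and 18.5 CPM (log2 fold change -0.19, adjusted p = 0.273). Top2a had 74.0 and 58.9 CPM against 61.1, 62.9 and 59.9 CPM, with wild-type replicate 1 alone above the rest (log2 fold change -0.12, and 0.05 without that library).

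The 2 CDK inhibitors were not called, in edgeR, DESeq2, robust limma or voom, and neither had an unadjusted p under 0.05. Cdkn1a, the p21 protein that p53 induces, had 43.3 and 70.9 CPM in wild-type and 44.6, 60.1 and 74.3 CPM in heterozygous livers. Its values were spread over the same range in both genotypes (log2 fold change 0.08, SE 0.22), and its SE was the largest among the 38 genes. The sign for Cdkn1a turned in 4 of the 16 alternative fits (log2 fold change -0.25 to 0.47 over all of them). Cdkn1b, the p27 protein that holds cells in G1, had 31.7 and 27.7 CPM against 30.9, 26.3 and 26.5 CPM (log2 fold change -0.10, SE 0.10).

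**Figure D2:**
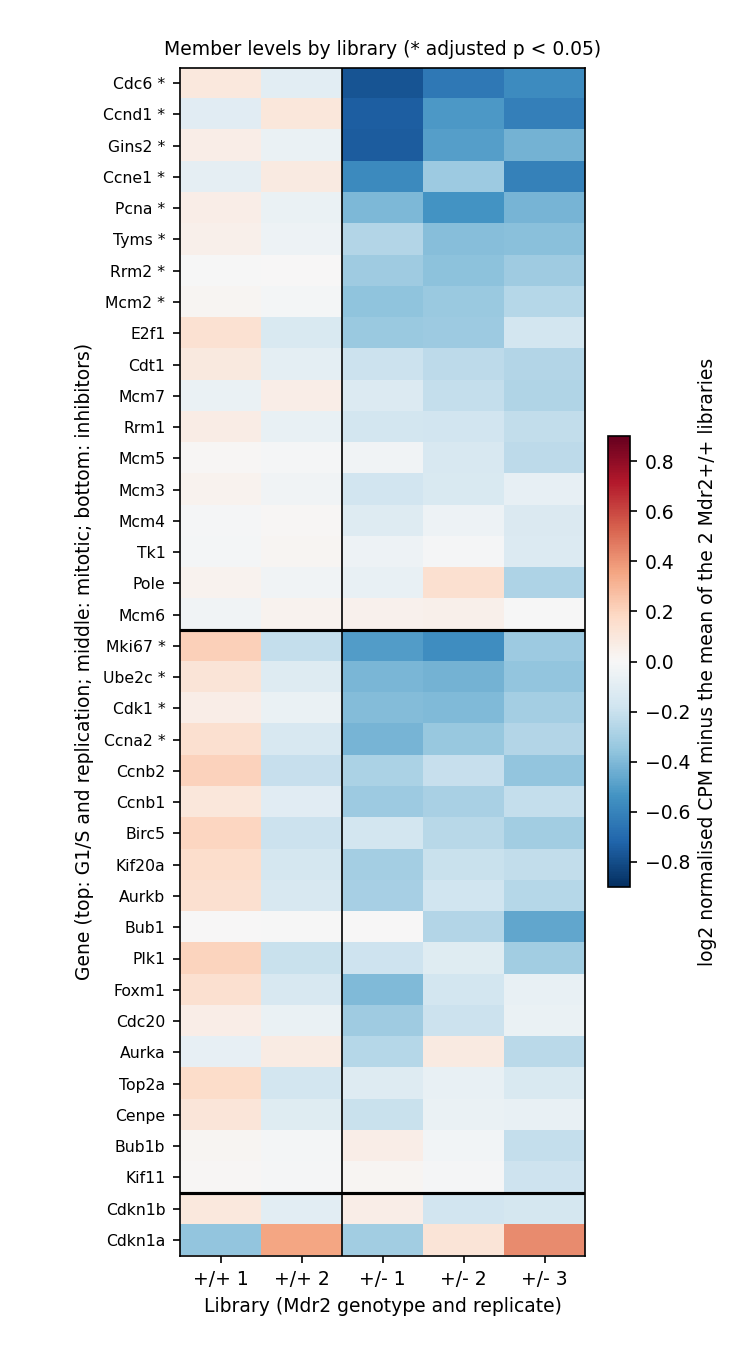
Level of each gene in each library as log2 normalised CPM minus the mean of the 2 wild-type libraries (blue lower, red higher), with G1/S genes on top, mitotic genes in the middle and inhibitors at the bottom. In the mitotic block the left column, wild-type replicate 1, is redder than the second column for 17 of 18 genes. Heterozygous cells of the top G1/S rows, Cdc6, Ccnd1 and Gins2, are among the darkest blue.

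Set side by side, the G1/S and mitotic classes had nearly the same typical change but unequal numbers of called genes. The mitotic genes were also at lower levels, with a mean log2 CPM of 4.67 and 4.45 in wild-type against 5.33 and 5.29 for G1/S genes. The part of level in the number of calls was not tested. In the G1/S class 8 of 18 genes fell, with a median log2 fold change of -0.26 and a range of -0.66 to 0.03. In the mitotic class 4 of 18 fell, with a median of -0.25 and a range of -0.48 to -0.06. The mean log2 CPM of the G1/S class, relative to the wild-type mean, was 0.02 and -0.02 for the wild-type pair, against -0.30, -0.26 and -0.30 for the heterozygotes. For the mitotic class it was 0.11 and -0.11 against -0.25, -0.20 and -0.24. Neither class overlapped between genotypes, and the wild-type pair was further apart in the mitotic class. Wild-type replicate 1 exceeded replicate 2 for 17 of 18 mitotic genes, with a median log2 difference of 0.26, for 11 of 18 G1/S genes, with 0.04, and for 49.7% of all tested genes, with -0.00.

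The comparison of the classes changed with the libraries used, and calls over all tested genes also became fewer with any library left out. The mitotic minus G1/S difference of medians was 0.01, and 0.12 without wild-type replicate 1, where the mitotic median was -0.09 and the G1/S median -0.21. Without that library 3 G1/S and 0 mitotic genes were called by edgeR, with 9 and 3 lower at an unadjusted p under 0.05. Without wild-type replicate 2, 6 of each class were called and the mitotic median was -0.38. Without heterozygous replicate 2, 6 G1/S genes and 0 mitotic genes were called, with 11 and 6 lower at an unadjusted p under 0.05. Without heterozygous replicate 1 the mitotic count was 2. Within a library, the mitotic mean minus the G1/S mean was -0.66 and -0.84 for the wild-type pair, against -0.70, -0.69 and -0.69 for the heterozygotes on the log2 CPM scale, so the heterozygous values lay between the wild-type ones. The difference between the classes was not tested, since genes of a class are not replicates.

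**Figure D3:**
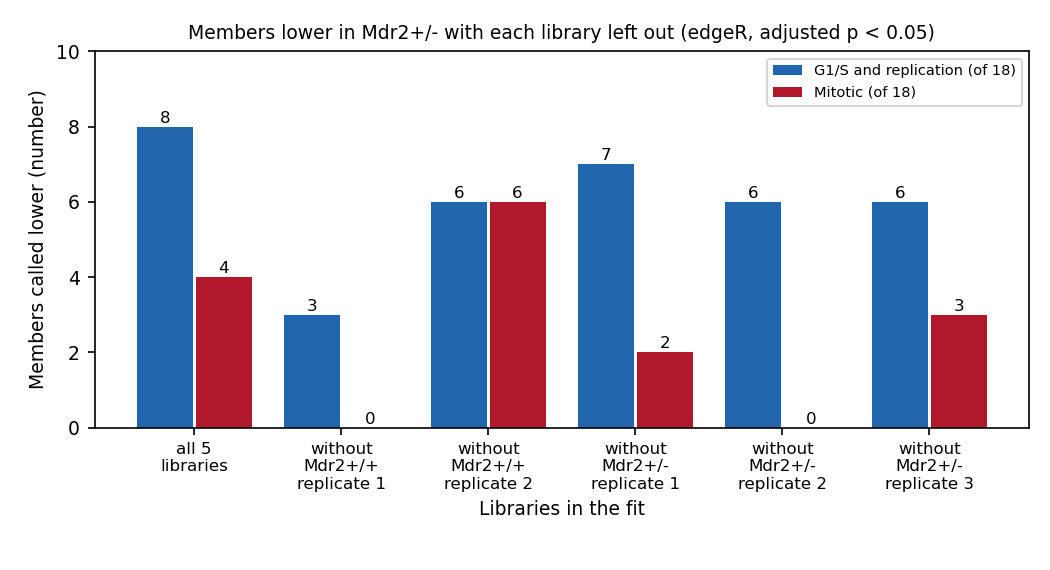
Number of genes called lower in heterozygous livers (edgeR, adjusted p under 0.05) among the 18 G1/S genes and the 18 mitotic genes, with all 5 libraries and with each library left out. The G1/S bars stay at 3 or more, and the mitotic bars are at 0 where wild-type replicate 1 or heterozygous replicate 2 is missing.

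Other genes of the same pathways leaned the same way, in lists drawn up by role but with earlier results of these data known. Among all tested genes, 5.41% were called lower and 6.63% higher. Of 53 further G1/S and replication genes 7 fell and 1 rose, with a median log2 fold change of -0.24, and of 55 further genes of G2 and mitosis 7 fell and 0 rose (0 higher also at an unadjusted p under 0.05 and in DESeq2, robust limma and voom), with a median of -0.25. Cdk4, the kinase partner of cyclin D, had 83.0 and 79.3 CPM in wild-type and 66.7, 64.9 and 66.2 CPM in heterozygous livers (log2 fold change -0.30, SE 0.06, adjusted p = 0.0132). Lig1, the ligase that joins Okazaki fragments, fell (log2 fold change -0.33, adjusted p = 0.0181), as did the clamp loader subunit Rfc4 (-0.60, 0.0221) and the fork protection gene Tipin (-0.43, 0.0239). The gene that rose was Rbl2, named after its values were seen, which encodes the p130 pocket protein that silences cell cycle genes in resting cells (15.9 and 18.2 CPM against 24.4, 21.4 and 21.9 CPM, log2 fold change 0.41, adjusted p = 0.0302). Rbl2 stayed higher in all 16 alternative fits but kept its call in 8 of them, losing it in DESeq2, with the length offset, and when wild-type replicate 1 or any heterozygous replicate was left out (adjusted p up to 0.195).

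Among the further mitotic genes, Tpx2, the spindle factor that activates Aurora A, had 27.2 and 23.6 CPM against 17.7, 19.8 and 17.7 CPM (log2 fold change -0.47, SE 0.10, adjusted p = 0.0162). The condensin gene Smc2 (log2 fold change -0.34, adjusted p = 0.0196), the cohesin guard Sgol2 (-0.67, 0.0234) and Cdca3, a trigger of mitotic entry (-0.38, 0.0238), also fell. Without wild-type replicate 1, 1 of the further G1/S genes and 0 of the further mitotic genes were called lower by edgeR, with 12 and 11 lower at an unadjusted p under 0.05 and medians of -0.17 and -0.14. With any other library left out, 2 to 3 further G1/S genes and 2 further mitotic genes were called lower, and DESeq2 called 3 and 1 with all libraries. Of the genes named from these lists, Cdk4 and Tpx2 kept the call in 3 of the 5 fits with a library left out, Lig1 and Tipin in 2, and Rfc4, Smc2, Sgol2 and Cdca3 in 1.

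Some p53 targets outside the 38, among them genes of cell death, fell in the fit with all libraries. Of 20 tested, 4 fell, where 5.41% of all tested genes did, and 0 rose (1 higher at an unadjusted p under 0.05, and 0 called higher by DESeq2, robust limma or voom), with a median log2 fold change of -0.07. Those that fell were Rps27l (log2 fold change -0.37, adjusted p = 0.00509), the death effector Bax (-0.36, 0.0459), the death receptor Tnfrsf10b (-0.75, 0.0477) and the nuclease Aen (-0.34, 0.04998). DESeq2 and voom each called 1 of the 20, as did edgeR with any library left out. Rps27l kept its call in each of those 5 fits and lost it with the length offset, while Bax, Tnfrsf10b and Aen lost theirs in all 5. Of 11 other inhibitors of the cycle 1 fell and 0 rose, and 0 were higher at an unadjusted p under 0.05 or in the other tools, although 1 rose when heterozygous replicate 1 was left out. The gene that fell was the stress gene Gadd45b, with 7.33 and 7.49 CPM in wild-type and 3.22, 2.55 and 3.84 CPM in heterozygous livers (log2 fold change -1.21, SE 0.19, adjusted p = 0.00447). Cdkn2c, Cdkn3 and Cdkn1c, from the same list, did not pass (log2 fold change -0.33, -0.45 and 0.13, adjusted p = 0.0864, 0.129 and 0.193).

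**Figure D4:**
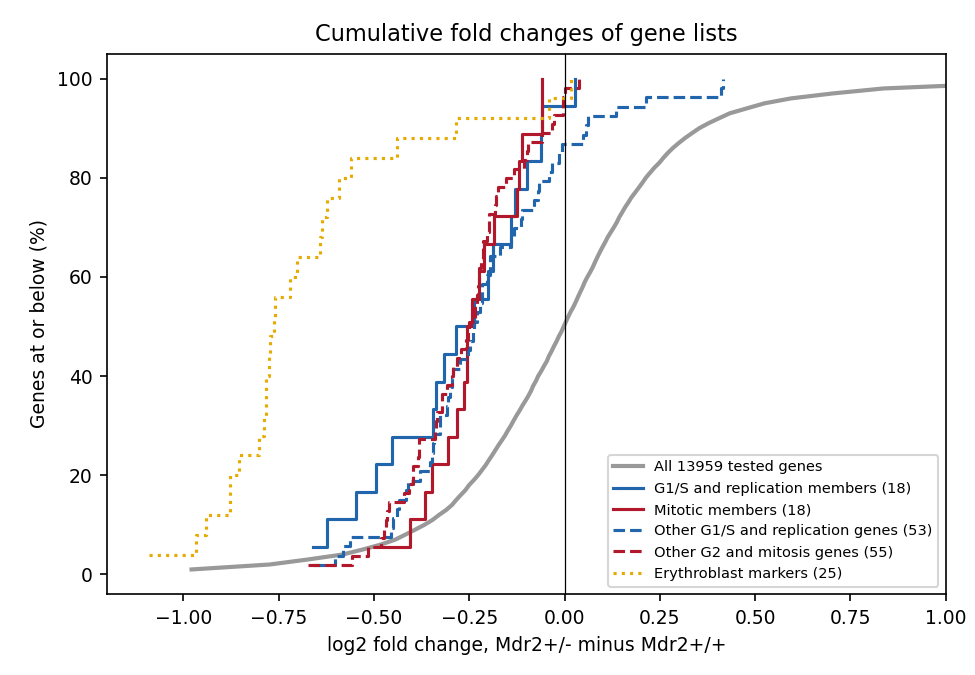
Cumulative share of genes (percent, vertical) at or below each log2 fold change (horizontal) for all tested genes, the G1/S and mitotic members, the other genes of both phases and all 25 erythroblast markers. The 4 cell cycle curves run together, with medians of -0.24 to -0.26, between the erythroblast curve with a median of -0.76 and the curve of all tested genes with a median of -0.00.

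Markers of the dividing cell types of this liver were read from the same fit. Erythroblasts, the nucleated red cell precursors, divide until late in their maturation, and 17 of their 25 measured markers fell while 0 rose (0 higher at an unadjusted p under 0.05), with a median log2 fold change of -0.76. None of the 25 was at 0 in any library. The summed marker level was 6187 to 7436 CPM in wild-type and 3667 to 4215 CPM in heterozygous livers. The adult beta globin gene Hbb-b1 had 1932 and 1656 CPM against 1145, 1044 and 937 CPM (log2 fold change -0.78, adjusted p = 0.00144), and Hbb-b2 and Hba-a1 had -0.80 and -0.88. Each of these globin genes, Hbb-b1 included, has a near-identical copy that makes its count uncertain. Klf1, a factor of dividing erythroblasts named after its values were seen, fell (9.25 and 8.24 CPM against 5.65, 4.61 and 6.57 CPM, log2 fold change -0.64, adjusted p = 0.0371), but it lost its call in DESeq2 and in 4 of the 5 fits with a library left out, all but that without heterozygous replicate 3 (adjusted p up to 0.188). Gata1, named in the same way, did not pass (log2 fold change -0.64, adjusted p = 0.0968).

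The lead of wild-type replicate 1 over replicate 2 in the mitotic genes was also present in many marker lists. It held for 20 of 25 erythroblast markers, with a median log2 difference of 0.24, for 9 of 9 of Kupffer cells, with 0.48, for 8 of 9 of maturing neutrophils, with 0.49, for 8 of 9 of precursor B cells, with 0.34, and for 6 of 7 of megakaryocytes, with 0.54. It held as well for 4 of 5 granulocyte progenitor markers (0.49), 5 of 6 of T and natural killer cells (0.53) and 3 of 5 of cholangiocytes (0.55), but for 3 of 17 of hepatocytes (-0.12), 2 of 7 of endothelial cells (-0.11), 1 of 7 of stellate cells (-0.09) and 3 of 6 of immature hepatocytes (0.01). Without that library edgeR called 14 of the 25 erythroblast markers lower, with a median of -0.67. The mean log2 CPM of the 21 markers other than globins, relative to the wild-type mean, was 0.09 and -0.09 for the wild-type pair, against -0.66, -0.69 and -0.55 for the heterozygotes, a larger gap than in either cell cycle class. The summed level of the 38 genes per 100 CPM of these 21 markers was accordingly 217 and 235 CPM in wild-type and 257, 265 and 264 CPM in heterozygous livers. The part of the erythroblast decrease in the lower cell cycle transcripts was not tested.

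Of 17 measured hepatocyte markers, 2 rose and 1 fell, where 6.63% of all tested genes rose and 5.41% fell, and 6 were higher and 2 lower at an unadjusted p under 0.05. The list had a median log2 fold change of 0.10 (-0.01 without wild-type replicate 1), none was at 0, and their sum was 221201 and 238849 CPM in wild-type and 250330, 234779 and 232835 CPM in heterozygous livers. Alb had a log2 fold change of 0.14 (adjusted p = 0.236) and Ahsg, the fetuin gene, of -0.12 (0.296), while Apoa1, the main protein of high-density lipoprotein, fell (-0.21, 0.0458). The 2 markers that rose, named after their values were seen, were Cps1, called in all 16 alternative fits, and Ass1, called in 9. Apoa1 kept its call in 7 of 16 alternative fits and, with a library left out, in that without wild-type replicate 2 alone (adjusted p up to 0.199 in the others). Markers of immature hepatocytes moved apart: 3 of 6 fell (1 without wild-type replicate 1, 2 without heterozygous replicate 2 or 3), 1 rose, and their sum was 15118 and 15237 CPM in wild-type and 15870, 18151 and 16286 CPM in heterozygous livers. Afp, the fetal serum protein, had 1826 and 2125 CPM against 790, 618 and 501 CPM (log2 fold change -1.63, SE 0.15, adjusted p = 5.6e-04). Afp was called in all 16 alternative fits. The imprinted growth factor gene Igf2 rose (log2 fold change 0.36, adjusted p = 0.0141), but was not called when wild-type replicate 1 or heterozygous replicate 2 was left out (adjusted p up to 0.0601), and its neighbour H19 did not pass (0.26, 0.0505). The part of hepatocytes in the lower cell cycle transcripts was not tested either.

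Markers of other blood precursors were higher or not called. All 5 granulocyte progenitor markers rose, with sums of 12.5 to 17.9 CPM in wild-type and 41.0 to 51.2 CPM in heterozygous livers, led in level by Mpo, Prtn3 and Elane (log2 fold change 1.81, 1.11 and 1.60). Of 9 tested precursor B cell markers 8 rose, with sums of 11.02 to 15.5 CPM against 32.5 to 38.3 CPM, among them Cd79a, Cd79b and Vpreb3 (1.22, 1.19 and 1.93), and 4 to 6 were called with a library left out. None of the 7 megakaryocyte markers was called in edgeR, with 2 at an unadjusted p under 0.05 and 0 in DESeq2, robust limma or voom (1 rose without wild-type replicate 1), and Ppbp, Pf4 and Itga2b had log2 fold changes of 0.69, 0.14 and 0.29. What these cells add to the cell cycle transcripts was not tested. Among markers of cells that divide less, 8 of 9 of maturing neutrophils rose (median log2 fold change 1.41), 2 of 9 of Kupffer cells fell (-0.31), 2 of 7 of endothelial cells fell (0.13), 1 of 7 of stellate cells rose (0.20), 1 of 6 of T and natural killer cells fell (-0.52), and 0 of 5 of cholangiocytes were called in edgeR, with 1 at an unadjusted p under 0.05 (0.03). Most of these smaller lists changed with the libraries used. Without wild-type replicate 1 the Kupffer cell list had 0 lower and 1 higher with a median of 0.06, and the cholangiocyte list had 1 lower with a median of 0.75. No Kupffer cell gene was called lower by edgeR when heterozygous replicate 2 or 3 was left out (3 and 2 at an unadjusted p under 0.05), and 4 were when wild-type replicate 2 was. The single T and natural killer cell gene was not called in any edgeR fit with a library left out (1 to 3 of its list lower at an unadjusted p under 0.05), nor in DESeq2 or robust limma, and the endothelial cell list had 0 to 2 lower in those fits. The stellate cell list had 1 to 2 higher, and the maturing neutrophil list 6 to 8.

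**Figure D5:**
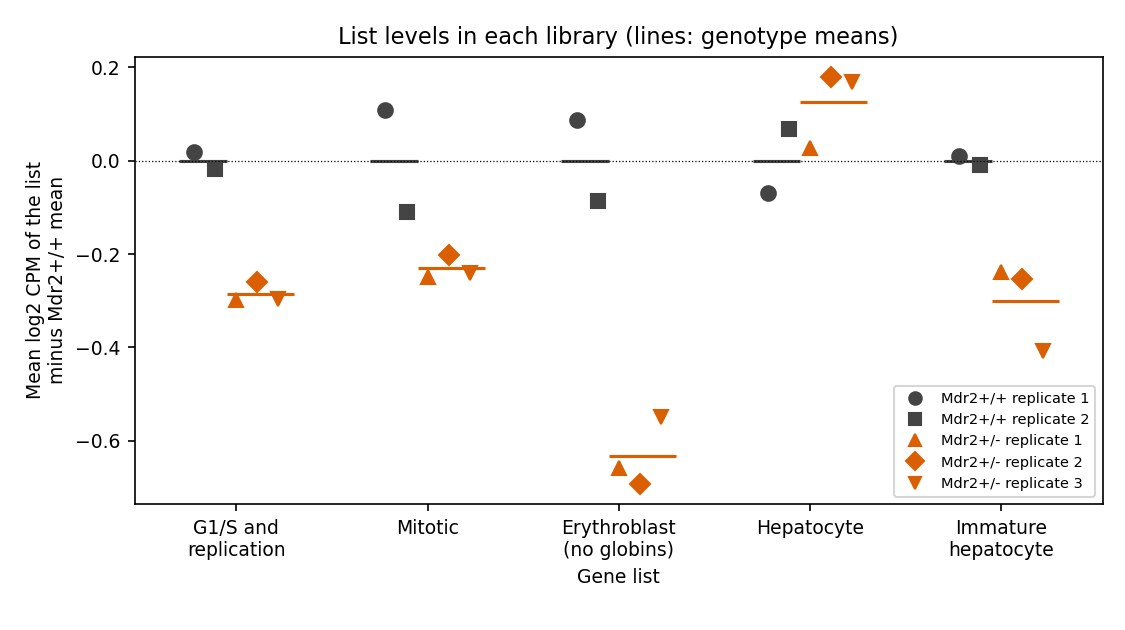
Mean log2 CPM of each gene list in each library, minus the mean of the wild-type libraries, with lines at the genotype means (grey wild-type, orange heterozygous). The heterozygous points of the G1/S and mitotic lists sit at -0.30 to -0.20, those of the 21 erythroblast markers without globins at -0.69 to -0.55 and those of the hepatocyte list at 0.03 to 0.18.

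Per length, the 38 genes covered a wide range of level. In CPM per kilobase of the longest annotated transcript, Pcna was highest, at 55.8 in wild-type and 40.8 in heterozygous livers, followed by Ccnd1 at 42.4 and 27.5, Cdkn1a at 27.4 and 28.7, Tk1 at 25.5 and 24.5, and Rrm2 at 24.7 and 19.6. Cdkn1a thus stood below Ccnd1 in wild-type and above it in heterozygous livers, by less than the spread of Cdkn1a between libraries in the latter. The lowest were Cdc6 at 2.61 and 1.65, Pole at 2.03 and 1.96, and Cenpe at 1.44 and 1.34. Transcript length itself followed the fold change over the whole table, with a median of -0.13 among the shortest genes and 0.11 among the longest when the tested genes were cut into 5 equal classes. The 38 genes were of ordinary length, with a median of 3426 bases against 3279 bases for all tested genes, and 3 lay in the shortest class and 5 in the longest. With an offset for transcript length, 13 of the 38 were called lower, and the class medians were -0.26 for G1/S and -0.24 for mitotic genes.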

How the data were processed

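Total RNA of snap-frozen liver was made into TruSeq libraries and sequenced on a HiSeq instrument, per the labels' protocols. TopHat and the build mm10 are named in the submitters' processing notes. The counting tool, annotation and use of strand were not given in the sources used here. The authors deposited, for each library, estimated counts of Ensembl genes that are not scaled to depth or length, and 34 of the 38 genes had a count more than 0.01 from a whole number in some library.

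Counts were rounded to whole numbers, filtered by filterByExpr (minimum count 10), scaled by TMM and tested by the quasi-likelihood test in edgeR 4.0.16 (2 wild-type against 3 heterozygous libraries, two-sided, no covariate, Benjamini-Hochberg adjustment over 13959 genes, threshold 0.05). Each SE is the ratio of the log2 fold change to the root of the F statistic. Libraries held 11944157 to 17312851 counts, and a floor of 3 counts equals 0.174 to 0.252 CPM, for counting error only. No 2 libraries agreed within sampling noise (chi-square per degree of freedom 5.30 to 25.8).

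The members and gene lists were chosen with earlier results of these data known, so no list was tested. All 38 members are named, with up to 4 genes of each other pathway list by p-value, the 3 most abundant genes of 6 marker lists, and Abcb4. Others are said to be named after their values were seen. Lengths and coordinates are from GENCODE M21 (mm10) and promoters from RefSeq. Alternatives were 2 filters, 2 scalings, DESeq2 1.42.0, robust limma and voom (limma 3.58.1), a replicate block, offsets for length and GC content, and each library left out, in R 4.3.3. The scripts were tested on simulated data.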

Additional observations from a re-analysis of the deposited data

How the results depend on the processing

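Of the 12 called genes, 12 stayed lower in all 16 alternative fits, and 2 (Ccnd1 and Pcna) kept the call in all of them. The number of genes called lower among the 38 was 3 to 12 with a library left out, with 3 to 7 G1/S and 0 to 6 mitotic genes. In those fits the class medians ran from -0.32 to -0.21 for G1/S and from -0.38 to -0.090 for mitotic genes, and their difference from -0.056 to 0.12. Over all genes the calls ran from 697 to 1174, with 345 to 670 higher and 352 to 504 lower, against 1680, 925 and 755 with all libraries. With the replicate block 8 G1/S and 4 mitotic genes were called. Together with the length offset, the replicate block left 7 of the 38 (5 G1/S and 2 mitotic) and 790 genes in all, 457 higher and 333 lower. Deviations from the genotype mean had a correlation of 0.03 for both same-numbered pairs, and of -0.03 when replicates 1 and 2 were crossed. With 2 wild-type libraries the deviations of that genotype mirror each other, so this cannot decide whether the numbers mark a pairing. The G1/S median was -0.30 with scaling by library totals, -0.29 with Ccna2 counted among G1/S genes, -0.20 without Ccnd1, Ccne1 and E2f1, and -0.29 as a mean. Totals-only scaling called 704 genes higher and 936 lower. With 2 and 3 libraries a group, each spread rests on few values. Fits without a wild-type library hold no spread for that genotype.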
